A study of Mus musculus with 6 samples.

Results

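The p53 target genes are 32 named mouse genes, Trp53 (which encodes p53) and 31 genes that p53 is known to control in arrest, death, repair, feedback or metabolic stress. They were picked by symbol from the deposited expression tables, where each symbol occurs once among 47606 genes. RNA was sequenced from 32D cells, an established line of mouse myeloid cells that grows in interleukin 3 (1 ng/mL). All cells, controls included, carried dCas9-KRAB, in which a KRAB repressor domain is joined to a Cas9 without nuclease activity, and were held in puromycin for a week after lentiviral transduction. The virus carried an empty vector (EV), guide sg2 or guide sg5, and each of these 3 groups has 2 libraries, numbered replicate 1 and replicate 2. The study is about a CEBPE enhancer, by its title, and compares the sg2 and sg5 cells with EV as a knock-down. CEBPE is a transcription factor needed for granulocyte maturation. The labels do not say what the replicate number stands for, whether the libraries come from separate cultures, or whether the cells are clonal.

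p53 is a transcription factor that is made continuously and degraded quickly, mostly because its own target Mdm2 marks it for the proteasome. When DNA damage or another stress blocks that degradation, the p53 protein accumulates and raises a set of genes that stop the cell cycle, repair DNA, trigger apoptosis or switch p53 off again. Much of this control acts on the protein, so the level of Trp53 RNA need not follow the output of its targets. In blood cells dependent on a cytokine, p53 is best known for its part in apoptosis after damage or cytokine loss. One of its targets, p21 (Cdkn1a), also lowers cell cycle genes through the DREAM complex, a repressor built on E2F4 and the pocket proteins.

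p53 binds DNA through a 10-base element, and a strong response element is a pair of such elements close together. RefSeq promoter windows (GRCm38.p6, 250 bases before to 50 after a transcript start) were available for 24 of the 32 members. A 10-base p53 element, in its usual degenerate form, was found in windows of 11 of these 24 genes (45.8%), against 2582 of 27025 genes in the table (9.55%). A pair with a spacer of at most 13 bases was found for 1 of the 24, Cdkn1a, against 20 genes of the table (0.074%). The motif is its own reverse complement, so the search covered both strands, and a match is letters in a window, not measured binding. The members shown were picked for differing in the behaviour described further on: 5 whose RNA was higher in the replicate 2 libraries, then Trp53, which was lower there. Letters run 5′ to 3′ on the strand of the gene, with the element in capitals.
Cdkn1a (chr17:29090891-29090952, plus strand): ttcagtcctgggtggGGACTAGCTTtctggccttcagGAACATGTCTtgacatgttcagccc
Mdm2 (chr10:117710920-117710959, minus strand): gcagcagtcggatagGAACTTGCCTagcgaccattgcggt
Ccng1 (chr11:40755447-40755486, minus strand): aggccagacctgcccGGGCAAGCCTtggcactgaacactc
Gadd45a (chr6:67037423-67037462, minus strand): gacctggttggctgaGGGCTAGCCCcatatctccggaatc
Aen (chr7:78895922-78895961, plus strand): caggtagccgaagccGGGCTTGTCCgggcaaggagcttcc
Trp53 (chr11:69580269-69580308, plus strand): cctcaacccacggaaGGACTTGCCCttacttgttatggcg
In Cdkn1a the elements begin 73 and 51 bases before the transcript start, with a spacer of 12 bases between them.

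Before the members, the knock-down was checked on Cebpe itself. Replicates 1 and 2 had 42.0 and 100 FPKM of it in EV cells, 14.4 and 18.7 FPKM in sg2 cells and 19.4 and 22.7 FPKM in sg5 cells, so every guide library lay below both EV libraries, as in 2.56% of all tested genes. The log2 difference of -1.75 was not called (limma adjusted p = 1.00, and 0.223 with the replicate block). FPKM is a level scaled to transcript length and library size, which makes levels of different genes comparable. The 6 libraries list between 21239 and 21867 genes above 0. The share of summed FPKM held by genes shorter than 200 nt was 6.77% to 9.67% in the replicate 1 libraries and 15.4% to 21.5% in the replicate 2 libraries. Mir6236, the highest gene of every library, alone held 5.02% to 7.61% of summed FPKM in replicate 1 and 13.6% to 17.7% in replicate 2. The library titled as sg5 replicate 2 is named sg2 in its source name and genotype and was used as sg5. Epithelial, fibroblast and lymphoid markers were at or near 0: 4 of 4 epithelial and 4 of 4 fibroblast markers, and 7 of 8 lymphoid markers, had a mean below 1 FPKM, with Epcam, Krt18, Col3a1, Cd3e and the stem cell factor receptor Kit at 0 in every library. Of 9 myeloid progenitor markers 8 passed 1 FPKM, among them Spi1, Ptprc and Prtn3. Other blood lists were not at 0: 3 of 4 megakaryocyte, 3 of 4 macrophage and 3 of 6 erythroid markers passed 1 FPKM, with sums of 149 to 218, 85.3 to 169 and 12.8 to 30.3 FPKM and with Hbb-bt and Hbb-bs at 0.

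Most of the p53 target genes were well expressed. Of the 32 members 26 had a mean of at least 1 FPKM and were tested, and 21 exceeded 10 FPKM in every library. Cdkn1a, the p21 inhibitor of cyclin-dependent kinases, was the highest member in all 6 libraries, and Ccng1, a cyclin G that acts with Mdm2, came next in all 6. The 6 members below the limit were Plk2 and Plk3 (polo-like kinases), Pmaip1 (Noxa, a BH3-only death protein), Perp, Eda2r and Dram1. Perp was listed at 0 in every library, and the highest values of Plk2 and Pmaip1 were 0.0120 and 0.0103 FPKM. Of the BH3-only pair controlled by p53, Bbc3 (Puma) was therefore measurable and Pmaip1 was not.

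**Figure D1:**
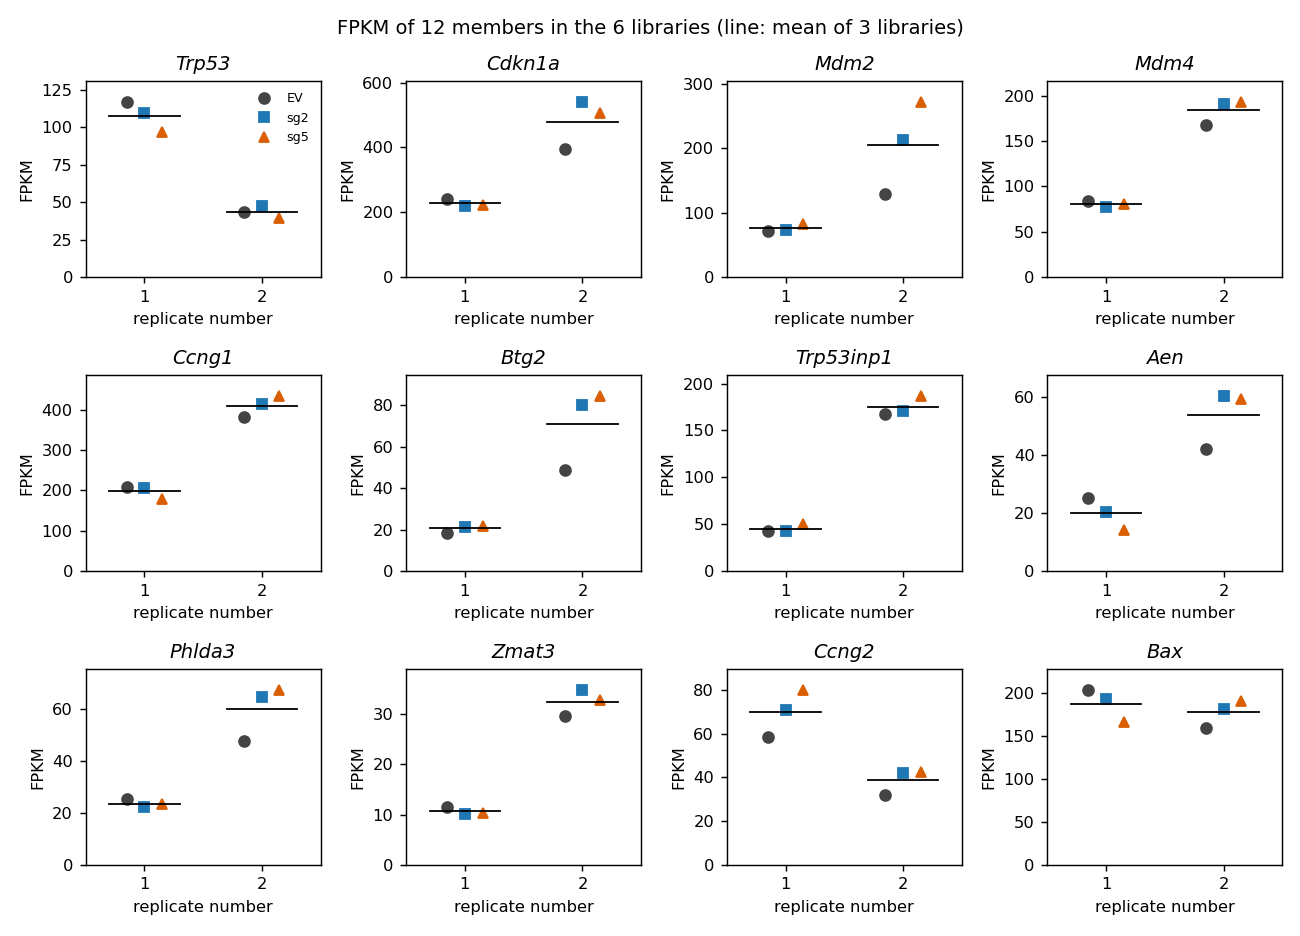
FPKM (vertical axis, from 0) of 12 members in the 3 libraries of each replicate number (horizontal axis), with EV as circles, sg2 as squares, sg5 as triangles and the mean of 3 libraries as a line. In 9 panels every replicate 2 library lies above every replicate 1 library, in Trp53 and Ccng2 every one lies below, and in Bax the numbers overlap.

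The members separated the replicate numbers. Set against the replicate 1 libraries with the group as a covariate, 20 of 26 tested members were higher in the replicate 2 libraries and 4 were lower at an adjusted p under 0.05, while 20.2% of all tested genes were higher and 26.9% lower. The median difference of the members was 0.88 on the log2(FPKM + 1) scale, and that of all tested genes was -0.04. In 20 members every replicate 2 library lay above every replicate 1 library, as in 27% of all tested genes, in 5 every one lay below, as in 34.1% of all tested genes, and only Bax overlapped. The shift appeared inside each group: the replicate 2 library was above the replicate 1 library for 20 of 26 members in EV, 20 in sg2 and 21 in sg5, with median differences of 0.71, 0.86 and 0.79. Over all tested genes the corresponding medians were -0.04 in each group. With 3 libraries against 3, an exact two-sided permutation test of a single gene cannot go below 0.1, the value it gave for Trp53, Cdkn1a and Mdm2.

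**Figure D2:**
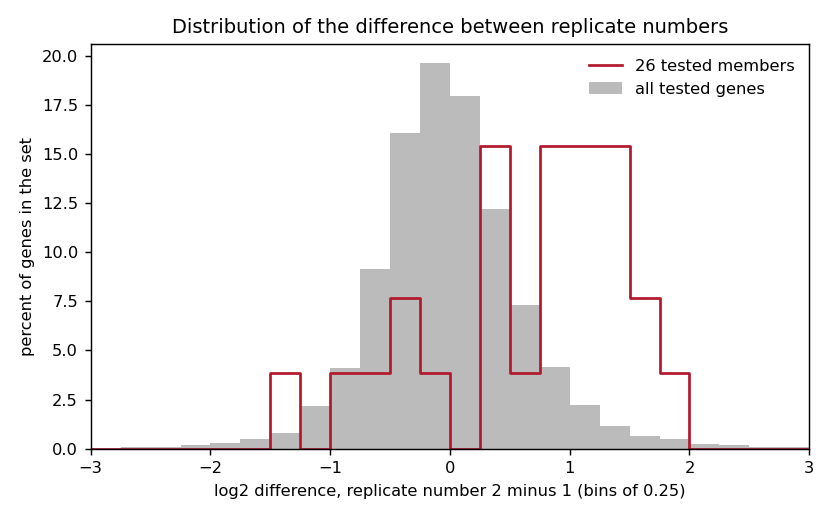
Percent of genes (vertical axis) in bins of 0.25 of the log2 difference between replicate numbers (2 minus 1, horizontal axis), for the 26 tested members (line) and all tested genes (grey). The members lie mostly to the right of the grey distribution, with a median of 0.88 against -0.04.

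Trp53 itself (GRCm38 chromosome 11, 69580359 to 69591873) went the other way. It measured 117, 109 and 96.7 FPKM in EV, sg2 and sg5 of replicate 1, and 43.3, 47.5 and 39.7 FPKM in the same groups of replicate 2. The replicate 1 libraries were all high and the replicate 2 libraries all low, whichever vector they carried. The log2 difference was -1.29 (SE 0.07, limma adjusted p = 0.00179). Of all tested genes 98.1% had a higher difference than Trp53.

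Among the members that act in arrest, 4 of 5 tested were higher in the replicate 2 libraries and 1 was lower. Cdkn1a (chromosome 17, 29090976 to 29100727) measured 242, 220 and 223 FPKM in EV, sg2 and sg5 of replicate 1, and 394, 540 and 505 FPKM in replicate 2. The lowest replicate 2 library was EV, and it still exceeded every replicate 1 library. The difference was 1.06 (SE 0.13, limma adjusted p = 0.00493). Btg2, an antiproliferative protein that promotes mRNA deadenylation, measured 18.5, 21.4 and 21.8 FPKM in replicate 1, and 48.5, 80.1 and 84.5 FPKM in replicate 2 (difference 1.70, SE 0.13, limma adjusted p = 0.00239). Gadd45a, a stress sensor upstream of the p38 and JNK kinases, measured 25.04, 21.4 and 31.3 FPKM against 68.8, 56.7 and 69.1 FPKM (difference 1.30, SE 0.08, limma adjusted p = 0.00192). Both were high in all replicate 2 libraries, without overlap. Ptpn14, a phosphatase that restrains YAP, was near the limit of 1 FPKM, at 0.960 to 1.30 FPKM in replicate 1 and 2.40 to 2.92 FPKM in replicate 2 (difference 0.78, limma adjusted p = 0.0155). Ccng2, a cyclin G relative that FOXO factors also induce, was the arrest gene that was lower. It measured 58.4, 70.8 and 80.1 FPKM in EV, sg2 and sg5 of replicate 1 and 31.9, 42.2 and 42.5 FPKM in replicate 2 (difference -0.83, SE 0.07, limma adjusted p = 0.00241).

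The members that switch p53 off were higher in the replicate 2 libraries in 4 of 4 cases. Mdm2 (chromosome 10, 117688875 to 117710758), the ubiquitin ligase of p53, measured 71.5, 73.8 and 82.0 FPKM in EV, sg2 and sg5 of replicate 1, and 129, 212 and 272 FPKM in replicate 2. Its replicate 1 libraries lay close together, and its replicate 2 libraries differed among themselves by more than those of the other feedback members. The difference was 1.36 (SE 0.18, limma adjusted p = 0.00587). Mdm4, its partner that masks the activation domain of p53, measured 83.4, 77.8 and 81.0 FPKM against 168, 191 and 193 FPKM (difference 1.18, SE 0.08, limma adjusted p = 0.00202). Ccng1, which recruits the phosphatase PP2A to Mdm2, measured 209, 207 and 180 FPKM against 382, 415 and 435 FPKM (difference 1.04, SE 0.09, limma adjusted p = 0.00281). All of these replicate 2 values lay above all replicate 1 values. Ppm1d, the Wip1 phosphatase that dephosphorylates p53, showed the smallest shift of the group, from 7.44 to 10.2 FPKM in replicate 1 and from 10.9 to 14.5 FPKM in replicate 2 (difference 0.43, limma adjusted p = 0.0134).

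**Figure D3:**
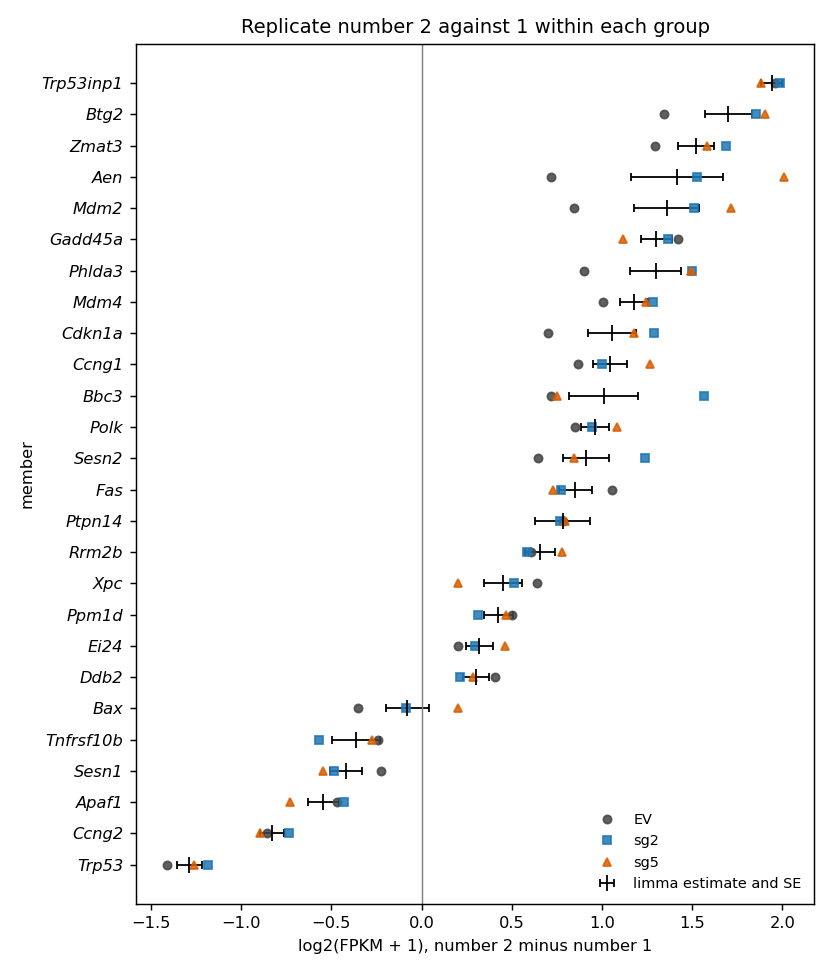
Difference of log2(FPKM + 1) between the replicate numbers (2 minus 1, horizontal axis) for the 26 tested members (vertical axis), with points for EV, sg2 and sg5 and a tick with bars for the limma estimate and its SE. The points of 20 members all lie to the right of 0, and those of Trp53, Ccng2, Apaf1, Sesn1 and Tnfrsf10b all lie to the left.

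The death genes were divided. Of 10 tested, 7 were higher in the replicate 2 libraries, 1 was lower and 2 did not pass. Trp53inp1, a cofactor that promotes phosphorylation of p53 and autophagy, had the largest difference of all members. It measured 42.5, 42.5 and 50.03 FPKM in EV, sg2 and sg5 of replicate 1, and 168, 171 and 187 FPKM in replicate 2 (difference 1.94, SE 0.06, limma adjusted p = 0.00151). It ranked 104 from the top of 12929 tested genes. Zmat3, an RNA-binding protein that regulates splicing, measured 11.5, 10.1 and 10.3 FPKM against 29.7, 34.8 and 32.7 FPKM (difference 1.52, SE 0.10, limma adjusted p = 0.00196). Aen, a nuclease that takes part in apoptotic DNA cleavage, measured 25.3, 20.3 and 14.0 FPKM against 42.2, 60.4 and 59.2 FPKM (difference 1.42, SE 0.26, limma adjusted p = 0.0126). In Aen the EV library was the highest of replicate 1 and the lowest of replicate 2. Phlda3, an inhibitor of AKT, measured 25.2, 22.2 and 23.3 FPKM against 47.8, 64.6 and 67.4 FPKM (difference 1.30, SE 0.14, limma adjusted p = 0.00395).

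Among the BH3-only and death receptor genes, Bbc3 measured 20.7, 21.6 and 26.7 FPKM in EV, sg2 and sg5 of replicate 1, and 34.6, 65.9 and 45.5 FPKM in replicate 2 (difference 1.01, SE 0.19, limma adjusted p = 0.0146). The death receptor Fas measured 12.2, 14.9 and 16.9 FPKM against 26.4, 26.2 and 28.7 FPKM (difference 0.85, SE 0.09, limma adjusted p = 0.00366). Neither overlapped between the numbers. The smallest shift of a death gene that was called was that of Ei24, an endoplasmic reticulum protein, at 0.32 (limma adjusted p = 0.0258). Apaf1 and Bax, which act at and after the mitochondrion, were not among the higher genes. Apaf1, the scaffold of the apoptosome, was lower in replicate 2, at 30.9, 31.5 and 35.9 FPKM in EV, sg2 and sg5 of replicate 1 and 22.0, 23.1 and 21.2 FPKM in replicate 2 (difference -0.54, SE 0.09, limma adjusted p = 0.00888). Bax, the pore former of the mitochondrial outer membrane, measured 204, 193 and 166 FPKM against 159, 182 and 191 FPKM (difference -0.08, SE 0.12, limma adjusted p = 0.613). Tnfrsf10b, the mouse TRAIL receptor, lay between 2.18 and 4.002 FPKM over the 6 libraries, with every replicate 2 library below replicate 1, and its difference of -0.36 did not pass (limma adjusted p = 0.0825).

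Repair members were higher in the replicate 2 libraries in 4 of 4 cases, with smaller differences than most arrest and feedback genes. Polk, a translesion DNA polymerase, measured 8.47, 8.75 and 9.72 FPKM in EV, sg2 and sg5 of replicate 1 and 16.1, 17.8 and 21.8 FPKM in replicate 2 (difference 0.96, SE 0.08, limma adjusted p = 0.00251). Rrm2b, the p53-dependent subunit of ribonucleotide reductase, measured 5.90, 6.64 and 6.41 FPKM against 9.51, 10.4 and 11.7 FPKM (difference 0.66, SE 0.08, limma adjusted p = 0.00535). Their ranges were separate in both cases. The damage sensors of nucleotide excision repair moved less: Xpc measured 18.1, 15.7 and 18.1 FPKM against 28.7, 22.8 and 20.9 FPKM (difference 0.45, limma adjusted p = 0.0255), and Ddb2 differed by 0.30 (limma adjusted p = 0.0253). The sestrins, which restrain mTORC1 under stress, split. Sesn2 was higher, with 25.9, 24.5 and 25.6 FPKM in replicate 1 and 41.2, 59.2 and 46.7 FPKM in replicate 2 (difference 0.91, SE 0.13, limma adjusted p = 0.00678), and Sesn1 was lower by 0.42 (limma adjusted p = 0.0192).

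**Figure D4:**
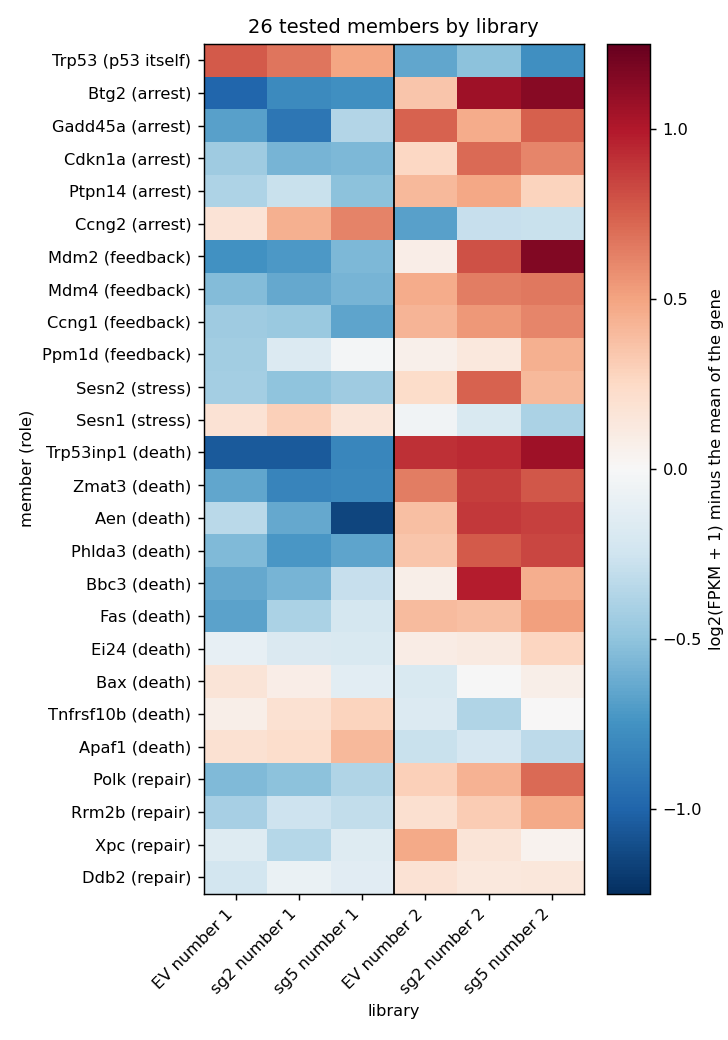
Level of the 26 tested members (rows, with their role) in the 6 libraries (columns), coloured by log2(FPKM + 1) minus the mean of that member over the libraries, red above and blue below. Most rows turn from blue in replicate 1 to red in replicate 2, and Trp53, Ccng2, Sesn1, Tnfrsf10b and Apaf1 turn the other way.

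The 24 calls did not all hold when 1 library was left out. With the group as covariate, the other library of its group then no longer informs the difference. Either library of a group therefore gives the same difference when left out. Between 13 and 16 members were then higher and 3 lower, while the share of all tested genes fell to between 9.23% and 14% higher and between 13.9% and 19.4% lower. The same 14 members were called in every such fit: Trp53, Cdkn1a, Btg2, Gadd45a, Ccng2, Mdm4, Ccng1, Fas, Phlda3, Zmat3, Trp53inp1, Polk, Rrm2b and Sesn2. Mdm2 lost its call without either sg2 library (difference 1.28, limma adjusted p = 0.0516 and 0.0511), as did Aen (difference 1.36, limma adjusted p = 0.0826 and 0.0821). Bbc3 (difference 1.16) and Apaf1 (-0.58) lost theirs without either EV library (limma adjusted p = 0.0526 to 0.0553). Ei24, Ddb2 and Ptpn14 were not called whichever of the 6 libraries was left out, and Ppm1d, Xpc and Sesn1 were not called in some of these fits. With no limit on low values, Bbc3, Ei24, Ddb2, Xpc and Sesn1 also missed the threshold. Exon bases are shared with another annotated gene in 8 members, and in 3 of them (Ddb2, Gadd45a and Plk3) that gene has a mean of at least 1 FPKM. The genes that overlap Bax, Cdkn1a and Rrm2b have no FPKM value here, and the one at Bax lies on the same strand. Whether the counting used strand is not given in the sources used here, so reads of pairs on opposite strands may not be separated.

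Set by promoter sequence, the median difference was 0.96 for the 11 tested members with a 10-base element, 0.91 for the 9 with a window and no element, and 0.55 for the 6 without a window. The range was -1.29 (Trp53) to 1.42 (Aen) with an element, -0.83 (Ccng2) to 1.70 (Btg2) with a window and no element, and -0.36 (Tnfrsf10b) to 1.94 (Trp53inp1) without a window.

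Some cell type markers also moved with the numbers. The summed level of the 4 macrophage markers was 85.3 to 105 FPKM in replicate 1 and 151 to 169 FPKM in replicate 2, with C1qa at 0 throughout. The sum of the 4 megakaryocyte markers was 211 to 218 FPKM against 149 to 174 FPKM. The sum of the 9 myeloid progenitor markers overlapped, at 729 to 1020 FPKM against 686 to 787 FPKM, with Kit at 0. Its members differed in direction: Mpo, the myeloperoxidase of granule precursors, had a mean of 105 FPKM in replicate 1 and 13.4 FPKM in replicate 2, while the protease Prtn3 had 275 and 321 FPKM. The part of these markers in the difference of the p53 targets was not tested. Rescaling the libraries without genes under 200 nt, whose share was larger in replicate 2, left the same members called. In bulk RNA, fewer cells of a type and less RNA per cell cannot be told apart.

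Genes around the pathway were read from lists of other p53 targets, p53 regulators, the DREAM and RB complex, and genes repressed through p21 and DREAM. Of 55 tested other p53 targets 25 were higher in the replicate 2 libraries (45.5%, beside 20.2% of all tested genes) and 7 lower (12.7%, beside 26.9%), with a median of 0.22 against -0.04 for all tested genes. Examples are Bcl2l11 (Bim, a BH3-only protein; difference 1.43), Psrc1 (a spindle protein, 1.54), Cd80 (a costimulatory ligand, 1.60) and Abhd4 (a lipase, 1.15). Rpl22l1, a ribosomal protein paralog whose close copies may share reads, had a difference of -1.62.

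Of 35 tested regulators of p53, 5 were higher (14.3%) and 12 lower (34.3%), with a median of -0.20, where all tested genes gave 20.2% higher, 26.9% lower and -0.04. Npm1, the nucleolar protein nucleophosmin, which can bind Mdm2, measured 1107, 1109 and 951 FPKM in EV, sg2 and sg5 of replicate 1, and 266, 264 and 287 FPKM in replicate 2 (difference -1.95, SE 0.09, limma adjusted p = 0.00167). Like Trp53, it was high in all replicate 1 libraries. The damage signalling genes Mre11a, Nbn and Chek1 differed by -0.78, -0.72 and -0.59, and Rbm38, an RNA-binding target that limits p53 translation, by 0.94.

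Of 27 genes repressed through p21 and DREAM, 2 were higher (7.41%) and 10 lower (37.0%) in the replicate 2 libraries, beside 20.2% and 26.9% of all tested genes, with a median of -0.12. Mcm5, a subunit of the replicative helicase, differed by -1.18, and Bub1, Rad54l and Mybl2 by -0.75, -0.81 and -0.49. Of the 12 genes of the DREAM and RB complex 4 were higher (33.3%) and 3 lower (25%), the lower share being near that of all tested genes. E2f4 differed by -1.02, Tfdp1 by -0.75 and Rbl1 by -0.72, while Rb1 and E2f5 differed by 0.76 and 0.85.

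With or without the replicate block, no p53 target gene was called between the guides and the controls. Few or no other genes were called either, and Cebpe was not. The main fit had no replicate block, so its spread includes the difference between the numbers. In it none of the 26 tested members passed for guides against EV, as was the case for all tested genes (0%). There 0 members had an unadjusted limma p under 0.05, against 169 of all tested genes. The differences ran from -0.24 (Xpc) to 0.50 (Mdm2), with 20 above 0 (76.9%) and 6 below, and a median of 0.07. Of all tested genes 48.7% were above 0, with a median of -0.005. For Cdkn1a the guide libraries had 372 ± 174 FPKM (SD, n = 4) and the EV libraries 318 ± 107 FPKM (SD, n = 2). Exact permutation of the libraries (two-sided), without regard to the replicate number, gave p = 0.8 for Cdkn1a, 0.8 for Trp53 and 0.533 for Mdm2. The smallest value that 15 splits allow is 0.0667. In no tested member were guide and EV libraries apart, while guides lay above EV in 2.54% and below in 2.56% of all tested genes. Without the replicate block, leaving out a single library could turn the sign of the median. It was -0.18 without EV replicate 1, -0.02 without sg2 replicate 2 and -0.00 without sg5 replicate 2. These fits hold the replicate numbers unequally in guides and EV, and with the block as well the median stayed above 0.

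Blocking on the replicate number, which removes the shift described above, still called 0 members, against 0.0387% of all tested genes. In that fit 3 members had an unadjusted limma p under 0.05, against 739 of 12929 tested genes. Ccng2 differed by 0.38 (SE 0.07, limma adjusted p = 0.440), Btg2 by 0.48 (SE 0.13, limma adjusted p = 0.703) and Mdm2 by 0.50 (SE 0.20, limma adjusted p = 0.813). For each of these, both guides lay above the EV library of the same number in both numbers. The late neutrophil markers, the 8 genes that follow granulocyte maturation, summed to 446 and 678 FPKM in EV and 131 to 188 FPKM with the guides, with Retnlg at 0. Their part in the values of the p53 targets was not tested.

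Taken singly, sg2 against EV called 0 members (0.00773% of all tested genes, 0.0232% with the replicate block), and sg5 against EV called 0 (0% of all tested genes, 0.0155% with the block). The guides set against each other also called 0 members (0% of all tested genes in both fits). The median differences of the members were 0.07 for sg2, 0.10 for sg5 and 0.04 for sg5 against sg2. Over all tested genes these medians were 0.003, -0.01 and -0.01. The comparisons of sg2 and of sg5 with EV share the EV libraries. All comparisons of single guides use, as sg5 replicate 2, the library whose source name and genotype name sg2. Fits that counted it as sg2 are not reported here.

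Within replicate 1, both guides lay above EV for 12 of 26 members (34.9% of all tested genes) and below it for 10. Within replicate 2, both lay above EV for 17 of 26 (29.4% of all tested genes) and below it for 3. The share of all tested genes was not computed for the counts below EV. The median distance of the members from EV was 0.01 for sg2 and 0.04 for sg5 in replicate 1, and 0.13 and 0.18 in replicate 2. Over all tested genes it was 0.007 and 0 in replicate 1, and -0.0005 and -0.01 in replicate 2. No member passed the test of whether the distance from EV differed between the numbers (0% of all tested genes). Of all 12929 tested genes 541 had an unadjusted limma p under 0.05, and so did 5 of the 26 members. They were Phlda3 (0.60, SE 0.13, limma adjusted p = 0.839), Cdkn1a (0.53, SE 0.12, limma adjusted p = 0.908), Btg2 (0.54, SE 0.13), Aen (1.05, SE 0.33) and Mdm2 (0.77, SE 0.26), the last 3 with limma adjusted p between 0.937 and 1.00. In Cdkn1a, Phlda3 and Aen both guide libraries lay below EV in replicate 1 and above it in replicate 2, while in Btg2 and Mdm2 they lay above it in both numbers. Such a change of side occurred in 10 of 26 members and in 18.2% of all tested genes. EV has 1 library in each number, so these distances all rest on it.

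**Figure D5:**
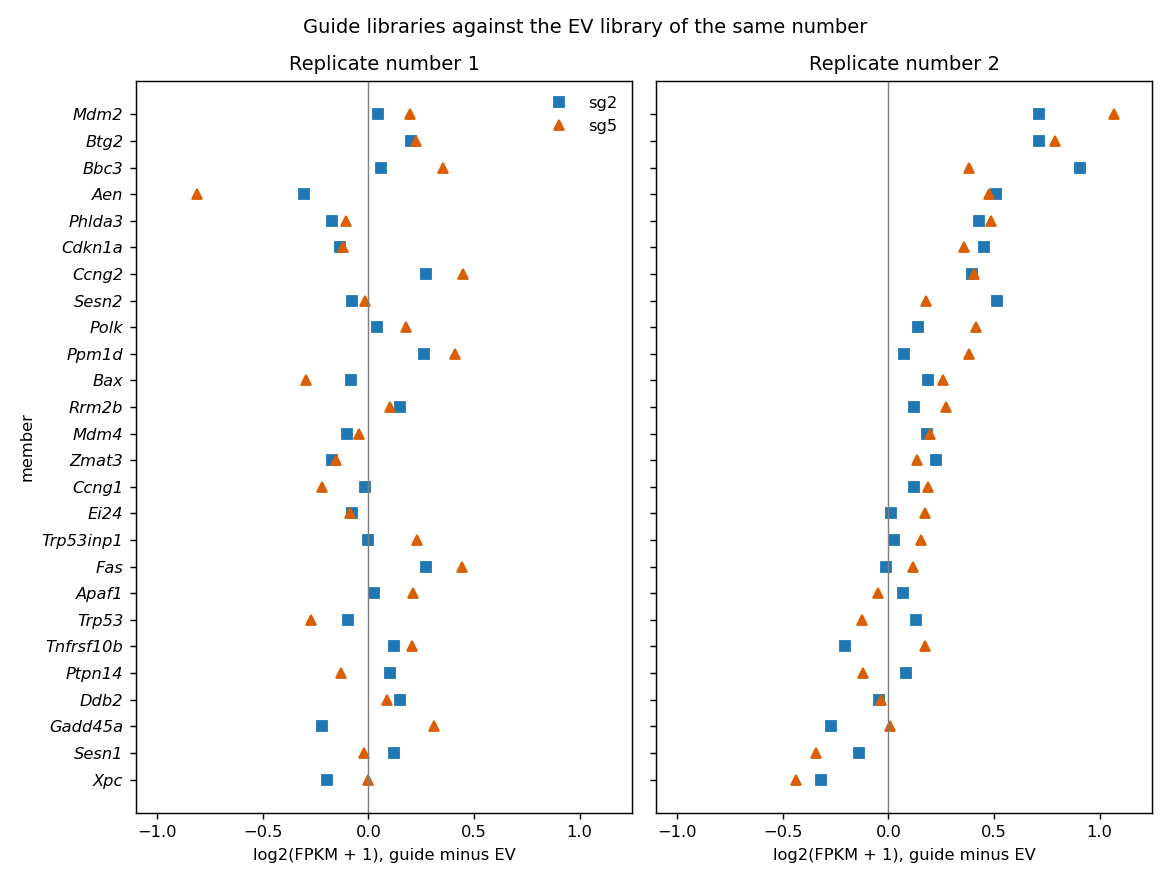
Difference of log2(FPKM + 1) between each guide library and the EV library of the same replicate number (horizontal axis) for the 26 tested members (vertical axis), with replicate 1 on the left panel, replicate 2 on the right, sg2 as squares and sg5 as triangles. Aen, Phlda3 and Cdkn1a lie left of 0 in replicate 1 and right of 0 in replicate 2, and Mdm2 and Btg2 lie right of 0 in both.

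Of the members below the limit, Plk3 was the 1 case in which guide and EV libraries did not overlap. It measured 0.376, 0.520 and 0.580 FPKM in EV, sg2 and sg5 of replicate 1 and 0.483, 2.07 and 1.76 FPKM in replicate 2. The lowest guide library and the highest EV library were thus close, at 0.520 and 0.483 FPKM. Without the limit its guides minus EV difference was 0.57 (SE 0.35, limma adjusted p = 1.00). Eda2r, a receptor of the TNF family, lay between 0.340 and 0.422 FPKM in replicate 1 and between 0.778 and 1.53 FPKM in replicate 2. Dram1, a lysosomal regulator of autophagy, was between 0.0197 and 0.498 FPKM against 0.671 and 0.996 FPKM, and without the limit its difference between the numbers was 0.57 (limma adjusted p = 0.0384).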

How the data were processed

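RNA of 6 libraries was sequenced after a TruSeq preparation, per the labels' protocols. The authors deposited 1 table of FPKM values per library. Per the submitters' processing notes, the tools were kallisto 0.43.0 and DESeq2 and the builds GRCm38 and mm10. The sources used here give neither the annotation release, nor the sequencing depth, nor how FPKM was derived. Positions come from GENCODE M21 (GRCm38).

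Tests covered genes averaging 1 FPKM or more (12929 of 26126 above 0) on log2(FPKM + 1), which understates changes of low genes, with limma 3.58.1 (intensity trend) in R 4.3.3 and Benjamini-Hochberg adjustment over all tested genes at 0.05. The fits set guides against EV, each guide against EV, the guides against each other, and replicate number 2 against 1 with the group as covariate. The interaction of guide and number was fitted too. The procedure was tested on simulated data. No depth or counting interval is given because the files hold FPKM only.

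Replicate differences correlated between groups at 0.611 (EV and sg2), 0.591 (EV and sg5) and 0.583 (sg2 and sg5) over genes. That the number pairs the libraries is a reading from the data. It was used as a block in alternative fits of the guides, while the main guide fits and the permutation tests took no account of it. No label says that replicates are separate cultures, and p-values reflect just the spread among these libraries, which may be technical. The members, the lists and the tests were chosen with earlier results of these data known. Library values are given for Trp53, Cdkn1a, Mdm2 and up to 20 members that passed or did not overlap, by size of difference. Of each list up to 5 genes that passed are named, or else the smallest p-values, and 1 gene that the rule names is not reported here. Alternatives were another pseudocount, no filter on low values, rescaling, centring, the replicate block and leaving out each library. Tables and drawings used Python 3.11.15, pandas 2.3.3 and matplotlib 3.10.9.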

Additional observations from a re-analysis of the deposited data

Results flagged for a closer look

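In 10 of the 26 tested members both guide libraries lay on opposite sides of the EV library in the 2 replicate numbers, as did 18.2% of all tested genes. The difference itself was tested as an interaction in limma, and none of the 10 passed (limma adjusted p from 0.839 to 1.00). Expressed as guides minus EV in replicate 2 less the same in replicate 1 on the log2(FPKM + 1) scale, it was above 0 in 9 of them. In those 9 the guides were below EV in replicate 1 and above it in replicate 2. The value was 1.05 for Aen (SE 0.33), 0.60 for Phlda3 (SE 0.13) and 0.53 for Cdkn1a (SE 0.12). It was 0.41 for Bax, 0.39 for Sesn2, 0.34 for Zmat3, 0.27 for Ccng1, 0.26 for Mdm4 and 0.18 for Ei24. Ddb2 ran the other way at -0.16 (SE 0.13). Each value rests on 1 EV library per number. With 2 libraries per group, single outlying libraries could not be looked for.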

How the results depend on the processing

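The replicate block combined with leaving out a library was added after seeing the data, and the other alternatives were set earlier. With the replicate block, 0 members were called for guides against EV. The median stayed at 0.07, which the block cannot change because the numbers are balanced over the groups. No pseudocount, centring, rescaling or filter moved a member across the threshold for guides against EV. For replicate number 2 against 1, the 20 higher and 4 lower members held with a pseudocount of 0.1, median centring, rescaling without genes under 200 nt, and no group term. Without the filter on low values, Bbc3, Ei24, Ddb2, Xpc and Sesn1 lost their call (limma adjusted p between 0.0503 and 0.0707). Tnfrsf10b joined the lower members when genes under 200 nt were dropped (limma adjusted p = 0.0460) and, separately, without the intensity trend (0.0497). FPKM without counts limits what can be said of members below 1 FPKM.

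Leaving out 1 library at a time, members higher in replicate 2 numbered 13 to 16, and the difference of Bax between the numbers ran from -0.22 to 0.0585. For guides against EV the sign held in Mdm2 (0.0817 to 0.93), Bbc3 (0.0675 to 0.78) and Ppm1d (0.0324 to 0.53) and changed in the other 23 tested members. The member median ran from -0.18 to 0.47. The range was -0.796 to 0.62 for Trp53, -0.21 to 0.49 for Cdkn1a, -0.19 to 1.15 for Btg2, -0.75 to 0.67 for Gadd45a, -0.0468 to 0.81 for Ccng2 and -0.409 to 0.38 for Ptpn14. It was -0.44 to 0.56 for Mdm4, -0.415 to 0.45 for Ccng1, -0.16 to 0.19 for Bax, -0.32 to 0.73 for Fas, -0.0486 to 0.21 for Tnfrsf10b and -0.17 to 0.30 for Apaf1. It was -0.29 to 0.61 for Phlda3, -0.391 to 0.35 for Aen, -0.10 to 0.11 for Ei24, -0.638 to 0.65 for Zmat3, -0.875 to 1.08 for Trp53inp1 and -0.16 to 0.24 for Ddb2. It was -0.56 to 0.0808 for Xpc, -0.23 to 0.62 for Polk, -0.14 to 0.46 for Rrm2b, -0.21 to 0.0249 for Sesn1 and -0.175 to 0.47 for Sesn2. Such fits leave the replicate numbers unequal between guides and EV, by construction. With the replicate block as well, the median ran from 0.05 to 0.18.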
